A study of Arabidopsis thaliana with 8 samples.

Results

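Of the 33602 genes in the deposited count table, 25 were near silence in control roots and clearly detected after 4 h of mebendazole. They were chosen by their measured values: CPM, the usual sequencing unit in which a gene's read count is scaled to its library's total, had to be at least 3 in each of the 4 mebendazole (MBZ) libraries and below 1 in each of the 4 DMSO libraries. The mirror rule, below 1 CPM in each MBZ library and at least 3 in each DMSO library, found 14 genes. MBZ is a benzimidazole drug that binds tubulin and is used in people against parasitic worms. Both groups were roots of 14-day-old wild-type Arabidopsis thaliana seedlings of the Col-0 accession, all raised on plates with the solvent DMSO. The MBZ group was moved for 4 h to plates with 10 µM mebendazole, and the DMSO group to plates with DMSO alone, with 4 replicates each. Nothing states whether replicates were separate cultures or how many plants each held, so p-values measure the spread between these libraries, which may be technical. Libraries held 38042437 to 54818801 assigned reads, so that 3 CPM stood for at least 114 reads and 1 CPM for at most 54.8 reads.

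Because MBZ and DMSO values selected the 25 genes, their differences between the groups are given as a description, without a test. All 25 passed edgeR's quasi-likelihood test at an adjusted p under 0.05, as did 32.9% of the 20867 genes tested in the higher direction and 33.6% in the lower direction, and nothing is read from that count. In whole roots more cells of a type and more RNA per cell cannot be told apart. What the rule did not use, namely their relatives, neighbours, gene structure and upstream sequence, is set out for each group of genes.

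Several of these genes belong to well studied plant pathways. Ethylene, a gaseous hormone, is made from 1-aminocyclopropane-1-carboxylate (ACC), and its signal ends in transcription factors of the EIN3 family that bind target promoters and induce further factors of the ERF family. Receptor kinases at the cell surface perceive microbes and peptides, and their genes are often kept low until a stimulus arrives. Auxin-inducible SAUR proteins and expansins act on cell growth at the plasma membrane and the wall.

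All 25 genes were protein-coding and all had an entry in the RefSeq annotation of the TAIR10.1 assembly, 12 with a gene symbol and 13 known by locus only. They were sorted into groups by judgement, not by an annotated class. Ethylene synthesis or signalling took 3, transcription or nucleic acid binding 5, and receptor kinases and receptor-like or PR1-like proteins 5. Growth and the cell wall took 3, enzymes together with the dirigent protein DIR5 took 6, and 3 had no clear role. The annotation of ORS1 names organ growth and not ethylene, and that of AT5G02760 names only a protein phosphatase 2C. None of the 25 genes was at 0 in every DMSO library: counts per gene and library were 135 to 1480 reads in MBZ and 2 to 51 reads in DMSO. Together the 25 genes took 173 to 176 CPM in the MBZ libraries, against 10.0 to 10.9 CPM in the DMSO libraries, so their sum varied little within a group. The median gene had 5.18 CPM in MBZ and 0.403 CPM in DMSO. The ratio of pooled CPM, MBZ over DMSO, ran over the genes with 6.27 as the lowest, 16.05 as the median and 71.3 as the highest.

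**Figure D1:**
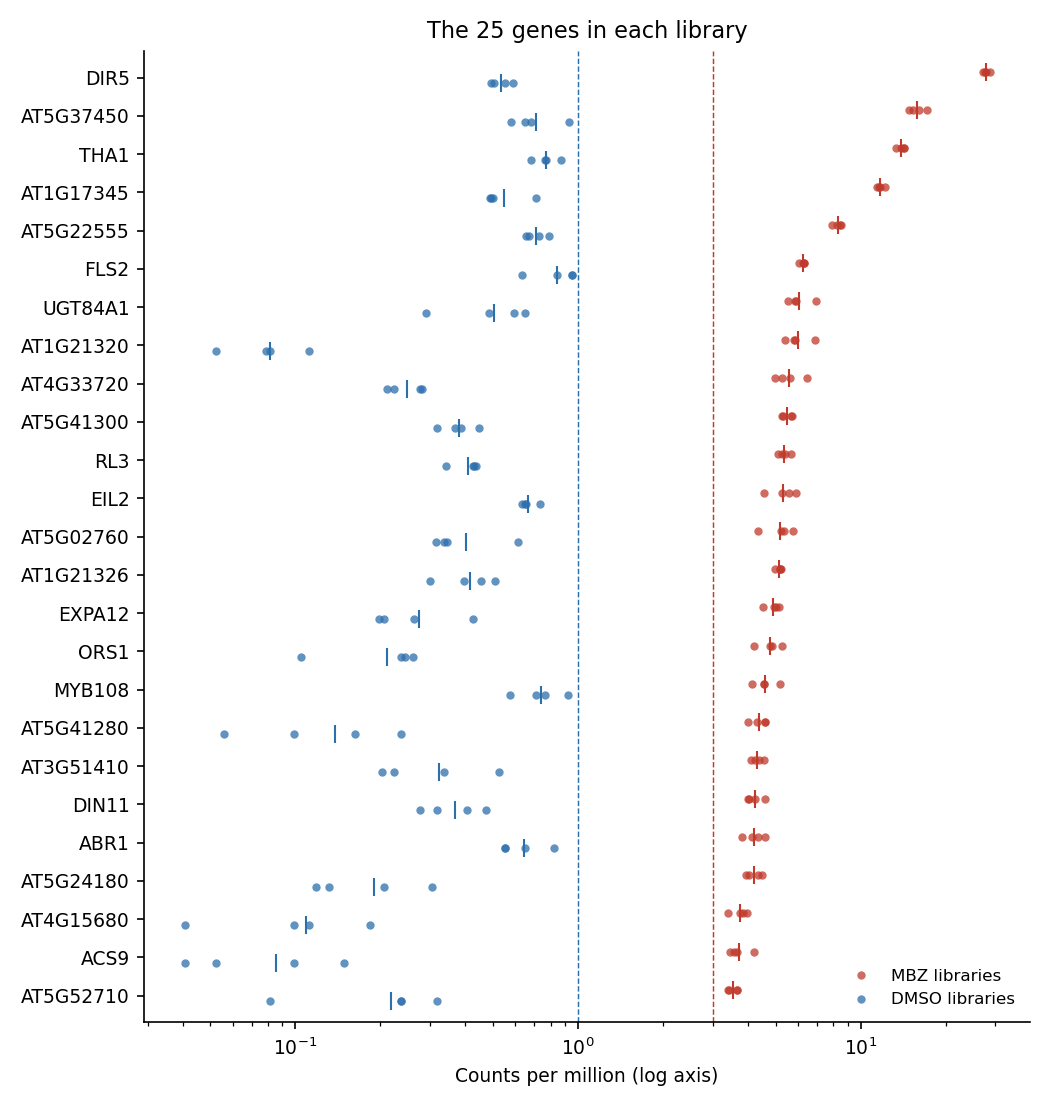
CPM of the 25 genes in each library on a log axis, one row per gene in order of mean MBZ level; red points above are MBZ libraries, blue points below are DMSO libraries, ticks mark group means and dashed lines the limits of 1 and 3 CPM. MBZ points of a gene lie close together, while DMSO points of the lowest genes spread widely, where they stand for a few reads.

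Spread between replicates was about as large as counting alone gives. Over the 25 genes the median coefficient of variation of CPM was 6.39% in MBZ and 21.6% in DMSO, beside 6.52% in MBZ and 22.5% in DMSO for counting error at those read numbers. The rule asks every library to pass, so no single library could carry the set. The highest MBZ value of a gene fell in replicate 1 for 4 genes, replicate 2 for 8, replicate 3 for 6 and replicate 4 for 7. Per unit of gene length, on the authors' RPKM scale, most of the 25 remained modest in MBZ. Their median level was 4.54 RPKM in MBZ and 0.295 RPKM in DMSO, while the median over the 17872 genes of the RPKM table was 14.8 RPKM in MBZ and 14.6 RPKM in DMSO. That table covers only part of the 33602 genes and lacks genes of low level such as AT3G49630 and ACS11. Ranks on the RPKM scale are therefore among the genes it holds. Only 3 of the 25 exceeded that table's median in MBZ, namely DIR5 at 33.6 RPKM, AT5G22555 at 15.96 RPKM and AT1G17345 at 15.0 RPKM.

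Passage from below 1 CPM to clear detection was rare. In the DMSO libraries 14384 genes were below 1 CPM throughout, 8427 of them with no read at all. Of the 14384, 131 reached at least 1 CPM in each MBZ library and the 25 reached at least 3 CPM. Genes with no DMSO read stayed at or below 0.799 CPM in every MBZ library. In the same range of mean DMSO level as the 25, from 0.0812 to 0.845 CPM, 1577 genes were tested. Of these 361 were higher and 250 lower past the threshold, beside 32.9% and 33.6% over all genes. The 1577 and the 361 both include the 25 genes, which the rule chose as higher. Over the 1577 genes the median log2 fold change was 0.04, and 66 genes outside the set were called at least 4-fold higher. The filter limits these counts. It asked for 0.213 CPM in 4 libraries, so genes below that level in a DMSO library were tested only with the help of MBZ libraries.

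**Figure D2:**
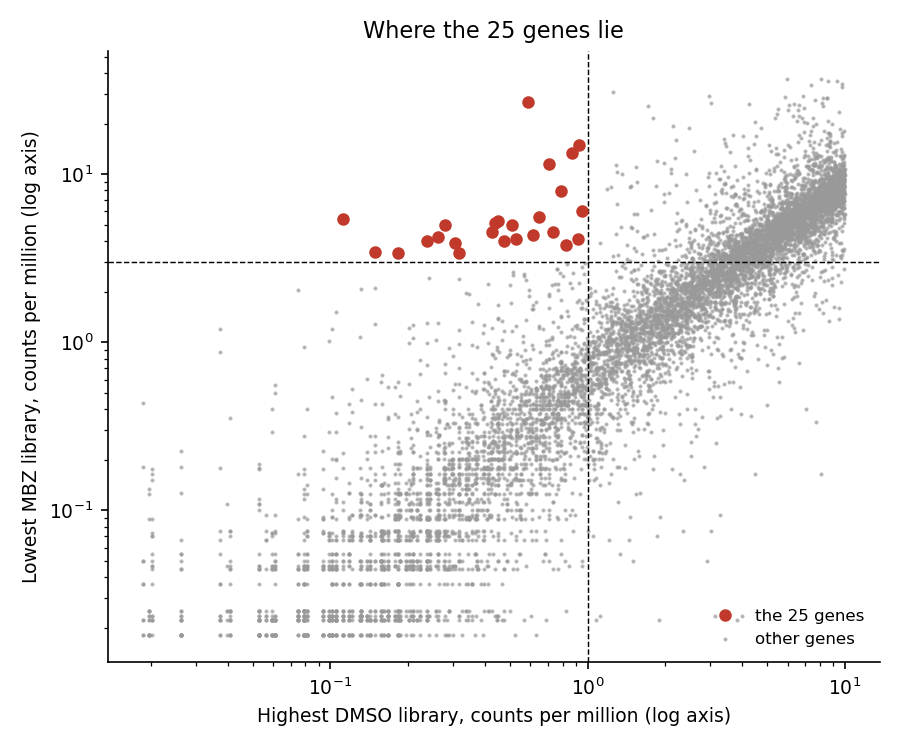
Lowest MBZ library (vertical) against highest DMSO library (horizontal) for genes of low level, both in CPM on log axes; dashed lines are the limits of 1 and 3 CPM, and genes with 0 on either measure are not drawn. The 25 genes (red) fill the upper left field, with FLS2 nearest the DMSO limit and AT4G15680 nearest the MBZ limit.

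The edges of the set were set by single libraries. Nearest inside the DMSO limit were FLS2, AT5G37450 and MYB108, whose highest DMSO libraries had 0.953, 0.929 and 0.920 CPM. Only 2 genes missed the rule through one DMSO library alone. ERF1, an ethylene response factor downstream of EIN3, had 9.16, 9.43, 8.21 and 9.02 CPM in the MBZ libraries, against 0.731, 0.933, 1.19 and 0.815 CPM in the DMSO libraries, and the third DMSO library kept it out. CNGC19, a cyclic nucleotide-gated calcium channel, had 3.32, 4.30, 4.30 and 3.79 CPM in the MBZ libraries, against 0.771, 0.953, 0.840 and 1.31 CPM in the DMSO libraries. Nearest inside the MBZ limit were AT4G15680, AT5G52710 and ACS9, with 3.391, 3.393 and 3.45 CPM in their lowest MBZ libraries. The 3 genes that missed through one MBZ library were BCA3, a carbonic anhydrase, with 2.98 CPM there, AT2G26440, a pectin methylesterase inhibitor family gene, with 2.81 CPM, and AT1G60110, a mannose-binding lectin family gene, with 2.73 CPM.

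The ethylene group held ACS9, EIL2 and ORS1. ACS9 encodes an ACC synthase, the enzyme of the committed step of ethylene synthesis, and the eto3 mutant that overproduces ethylene carries a change in it. ACS9 had 4.20, 3.67, 3.45 and 3.57 CPM in the MBZ libraries, against 0.0988, 0.0406, 0.149 and 0.0526 CPM in the DMSO libraries. These values rest on 142 to 230 reads per MBZ library and 2 to 8 reads per DMSO library, and the ratio was 42.2 (95% counting interval 26.2 to 72.95). Its closest relative by protein is ACS5, 91.7% identical over 470 residues. ACS5 had 1.204, 0.752, 1.32 and 1.03 CPM in the MBZ libraries, against 6.03, 6.23, 6.66 and 6.34 CPM in the DMSO libraries, and the groups did not overlap. ACS5 fell by 2.52 on the log2 scale (SE 0.111, edgeR adjusted p = 1.04e-36). The pair thus changed places in level: 2.65 RPKM for ACS9 and 0.577 RPKM for ACS5 in MBZ, beside 0.0607 RPKM for ACS9 and 3.38 RPKM for ACS5 in DMSO. Their transcripts are 84.3% identical over 1438 bases, and how reads were divided between them was not tested. Of 9 ACC synthase genes other than ACS9, 7 were tested, of which 2 were higher and 5 lower past the threshold. The 2 were ACS6, with a log2 fold change of 0.37, and ACS10, with 0.30, an ACC synthase by sequence whose product acts as an aminotransferase. ACS2, ACS7, ACS8 and ACS11 had log2 fold changes of -0.22, -0.93, -0.87 and -0.72.

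EIL2, a less studied relative of the ethylene transcription factor EIN3, had 4.55 to 5.91 CPM in the MBZ libraries and 0.632 to 0.736 CPM in the DMSO libraries, a ratio of 8.08 (interval 6.71 to 9.81). The other family members were already abundant and moved little. EIN3 averaged 236 ± 3.55 CPM in MBZ and 196 ± 2.51 CPM in DMSO (SD, n = 4 each), which is 0.29 on the log2 scale (SE 0.0172). EIL1 rose by 0.38 (SE 0.024) and EIL3 by 0.13 (SE 0.0353) on the same scale, all past edgeR's threshold. ORS1 (AT2G41230) encodes a small ORGAN SIZE protein of the ARGOS family, whose members promote organ growth and, where tested in Arabidopsis and maize, lower ethylene sensitivity. ORS1 had 5.25, 4.21, 4.88 and 4.80 CPM in the MBZ libraries, against 0.237, 0.243, 0.261 and 0.105 CPM in the DMSO libraries, a ratio of 22.0 (interval 16.1 to 30.7). Both expressed relatives also rose. ARGOS averaged 71.8 ± 1.52 CPM in MBZ and 4.35 ± 0.327 CPM in DMSO, and ARL averaged 167 ± 4.45 CPM in MBZ and 19.1 ± 1.13 CPM in DMSO (SD, n = 4 each), with log2 fold changes of 4.05 (SE 0.0426) and 3.15 (SE 0.0277). ORS1 overlaps AT2G41231 on the opposite strand over 406 bases. AT2G41231 had 2 reads in the first MBZ library and none in the other 7.

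Transcription-related genes were ABR1, MYB108, RL3, AT1G21326 and AT1G21320. ABR1, an AP2/ERF factor named as a repressor of abscisic acid responses, had 3.79 to 4.58 CPM in the MBZ libraries and 0.552 to 0.821 CPM in the DMSO libraries, a ratio of 6.39 (interval 5.29 to 7.79). In its ERF subgroup, group X, 3 other genes were tested. RAP2.6 rose to 62.4 ± 1.32 CPM in MBZ, against 14.8 ± 0.573 CPM in DMSO, and Rap2.6L to 46.5 ± 0.619 CPM in MBZ, against 18.8 ± 1.16 CPM in DMSO (SD, n = 4 each). The third, AT2G33710, fell by 0.19 on the log2 scale. MYB108, an R2R3-MYB factor known from Botrytis responses and anther opening, had 4.54, 4.56, 4.12 and 5.17 CPM in the MBZ libraries, against 0.573, 0.710, 0.765 and 0.920 CPM in the DMSO libraries. Its ratio of 6.27 (interval 5.23 to 7.55) was the smallest of the set. Relatives of MYB108 did not all move one way. MYB78 and MYB112 rose by 1.68 (SE 0.104) and 1.35 (SE 0.089) on the log2 scale. MYB2 fell by 0.70 (SE 0.224), and MYB62 did not pass the threshold at -0.55 (SE 0.277, edgeR adjusted p = 0.0706). RL3, a small single-MYB protein like the snapdragon flower regulator RADIALIS, had 5.10 to 5.66 CPM in the MBZ libraries and 0.342 to 0.435 CPM in the DMSO libraries. Of 5 other RAD-like genes only MEE3 was expressed enough to be tested, and it rose by 0.79 on the log2 scale.

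AT1G21320 and AT1G21326 lie side by side on the minus strand of chromosome 1, 2600 bases apart with one gene between them. AT1G21326 is annotated as a VQ-motif protein, a family of cofactors of WRKY factors, and AT1G21320 as a nucleic acid-binding protein. AT1G21320 had 5.80, 5.38, 5.84 and 6.91 CPM in the MBZ libraries, against 0.0791, 0.0811, 0.112 and 0.0526 CPM in the DMSO libraries. It had 229 to 318 reads per MBZ library and 2 to 6 reads per DMSO library, and its ratio of 71.3 (interval 43.7 to 125) was the largest of the set. AT1G21326 had 4.97 to 5.24 CPM in the MBZ libraries and 0.299 to 0.507 CPM in the DMSO libraries, a ratio of 12.5 (interval 9.93 to 15.9). Their transcripts share a stretch of 706 bases at 94.1% identity, and the proteins are 85% identical over 220 residues, so how reads were divided between this pair is uncertain.

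Among receptor kinases and receptor-like or PR1-like proteins, FLS2 is the leucine-rich repeat receptor kinase that binds bacterial flagellin and starts pattern-triggered immunity. FLS2 had 6.06, 6.30, 6.31 and 6.28 CPM in the MBZ libraries, against 0.632, 0.953, 0.952 and 0.841 CPM in the DMSO libraries, a ratio of 7.36 (interval 6.24 to 8.73). Per length it remained among the lowest of the table's genes, at 1.68 RPKM in MBZ and 0.228 RPKM in DMSO. AT5G37450, a leucine-rich repeat kinase without a symbol, had 16.1, 15.3, 14.8 and 17.1 CPM in the MBZ libraries, against 0.929, 0.649, 0.578 and 0.683 CPM in the DMSO libraries, the second highest CPM of the set in MBZ, with a ratio of 22.3 (interval 18.7 to 26.6). FLS2 and AT5G37450 are only distantly alike, 34.8% over 305 residues. Of 174 other leucine-rich repeat kinase genes 152 were tested, of which 56 (background 32.9%) were higher and 72 (background 33.6%) lower, with a median log2 fold change of -0.10. AT4G33720 encodes a CAP-domain protein related to the secreted defence protein PR1. AT4G33720 had 5.62, 6.49, 4.97 and 5.28 CPM in the MBZ libraries, against 0.277, 0.223, 0.280 and 0.210 CPM in the DMSO libraries, a ratio of 22.3 (interval 16.7 to 30.4). Its closest relative PRB1 and its neighbour AT4G33710 had 0 reads in all 8 libraries, and the neighbour on its other side, AT4G33730, rose by 0.21 on the log2 scale (SE 0.0481). Across the CAP family 8 of 11 other tested genes were higher and 3 were lower, with a median log2 fold change of 0.45, beside 32.9% and 33.6% over all genes.

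AT5G41280 and AT5G41300 encode proteins of the receptor-like protein kinase-related family and sit in a row of 3 genes on the plus strand of chromosome 5. AT5G41280 had 4.31, 4.00, 4.59 and 4.57 CPM in the MBZ libraries, against 0.0988, 0.162, 0.0560 and 0.237 CPM in the DMSO libraries, a ratio of 33.4 (interval 22.5 to 51.9). AT5G41300 had 5.67, 5.71, 5.32 and 5.25 CPM in the MBZ libraries, against 0.316, 0.385, 0.448 and 0.368 CPM in the DMSO libraries, a ratio of 14.4 (interval 11.4 to 18.6). The gene between them, AT5G41290, missed the rule but moved likewise, with 2.61 ± 0.0946 CPM in MBZ and 0.3999 ± 0.115 CPM in DMSO (SD, n = 4 each). Its log2 fold change was 2.71 with an SE of 0.175 (edgeR adjusted p = 1.43e-25). AT5G41280 and AT5G41300 proteins are 67.2% identical over 290 residues. The transcript closest to that of AT5G41280, from AT5G41290, is 86.7% identical over 1013 bases, and how reads were divided in this row was not tested. Of 7 other tested genes of the family, AT5G41290 included, 4 were higher and 2 lower, with a median log2 fold change of 0.11, beside 32.9% and 33.6% over all genes. The 150 bases before the 2 start sites are shown because they hold the longest identical run between these upstream regions of the pair, 16 bases in capitals, whose first base is at -137 and -46 relative to the start. They are the plus strand of TAIR10.1, from chr5:16509357-16509506 and chr5:16514779-16514928. The 150 bases before AT5G41290 shared a run of at most 8 bases with those of AT5G41280. With those of AT5G41300 they shared a different run of 16 bases.
AT5G41280: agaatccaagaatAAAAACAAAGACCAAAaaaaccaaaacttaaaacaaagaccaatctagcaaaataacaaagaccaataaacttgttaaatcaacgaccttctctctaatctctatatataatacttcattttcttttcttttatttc
AT5G41300: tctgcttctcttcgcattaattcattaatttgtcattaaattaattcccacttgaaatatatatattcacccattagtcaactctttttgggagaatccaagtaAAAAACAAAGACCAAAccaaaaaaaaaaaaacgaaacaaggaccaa

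Growth and wall genes were AT1G17345, AT5G02760 and EXPA12. AT1G17345 is annotated to the SAUR family, many of whose members are auxin-inducible small proteins that promote cell expansion. AT1G17345 had 11.6, 11.4, 11.7 and 12.2 CPM in the MBZ libraries, against 0.494, 0.487, 0.709 and 0.499 CPM in the DMSO libraries, a ratio of 21.2 (interval 17.4 to 26.0). Of 35 other tested SAUR genes 19 were higher and 8 lower, with a median log2 fold change of 0.23, where all genes had 32.9% higher and 33.6% lower. AT5G02760, a protein phosphatase 2C, had 4.35 to 5.78 CPM in the MBZ libraries and 0.315 to 0.616 CPM in the DMSO libraries, a ratio of 12.5 (interval 9.96 to 15.99). EXPA12 encodes an alpha-expansin, a protein that loosens walls. It had 4.52 to 5.12 CPM in the MBZ libraries and 0.198 to 0.426 CPM in the DMSO libraries, a ratio of 18.1 (interval 13.7 to 24.4). Its first relative by protein alignment score, EXPA17, moved the opposite way. The 2 are not close, at 46.1% identity over 282 residues, and EXPA11 was 57.9% identical to EXPA12 over 209 residues. EXPA17 had 1.35, 0.870, 1.03 and 1.53 CPM in the MBZ libraries, against 13.0, 12.9, 14.4 and 14.0 CPM in the DMSO libraries, and fell by 3.48 on the log2 scale (SE 0.0918, edgeR adjusted p = 1.09e-53). Of 17 other tested expansin genes 4 were higher and 11 lower, with a median log2 fold change of -0.53, again beside 32.9% and 33.6%.

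**Figure D3:**
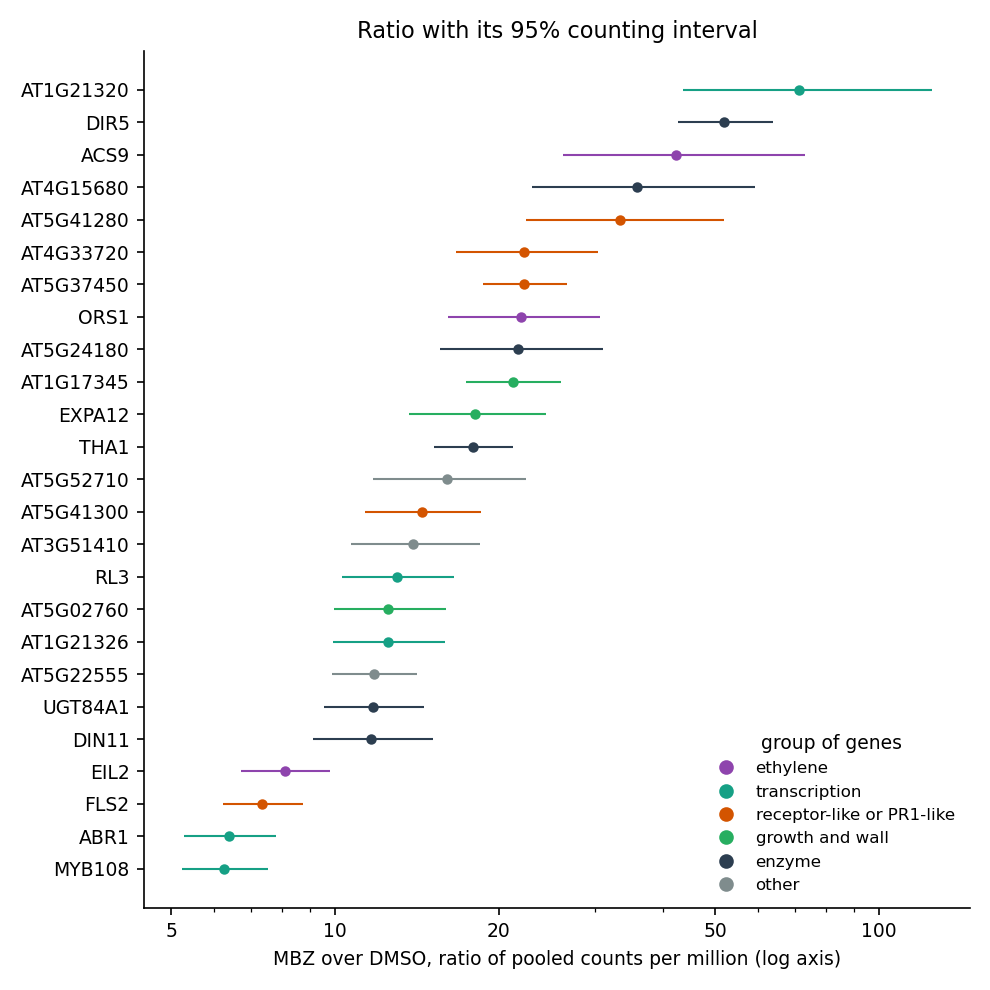
Ratio of pooled CPM, MBZ over DMSO, for each of the 25 genes on a log axis, coloured by the group assigned in the text; bars are exact 95% counting intervals. The ratios range between 6.27 for MYB108 and 71.3 for AT1G21320, and the intervals are widest where the DMSO reads are fewest.

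DIR5, placed with the enzymes although a dirigent protein is not itself one, was the most abundant gene of the set in MBZ. It is a dirigent protein, which steers the coupling of lignan precursors, and with DIR6 it gives pinoresinol of a single handedness. DIR5 had 26.998, 28.6, 27.5 and 27.7 CPM in the MBZ libraries, against 0.494, 0.588, 0.504 and 0.552 CPM in the DMSO libraries, a ratio of 51.9 (interval 42.7 to 63.8). At 33.6 RPKM in MBZ it passed 75.7% of the genes in the RPKM table. DIR6, 75.5% identical over 163 residues, averaged 64.4 ± 3.16 CPM in MBZ and 94.8 ± 1.99 CPM in DMSO (SD, n = 4 each) and fell by 0.54 on the log2 scale (SE 0.0248). Of 17 other tested dirigent genes 2 were higher and 10 lower, with a median log2 fold change of -0.17, beside 32.9% and 33.6% over all genes. THA1, a threonine aldolase that splits threonine into glycine and acetaldehyde, had 14.3, 14.2, 13.3 and 13.9 CPM in the MBZ libraries, against 0.870, 0.771, 0.765 and 0.683 CPM in the DMSO libraries, a ratio of 17.9 (interval 15.2 to 21.3). THA2, the only other threonine aldolase gene, was already present at 17.7 ± 0.678 CPM in MBZ and 16.3 ± 0.521 CPM in DMSO (SD, n = 4 each). It rose by 0.13 on the log2 scale (SE 0.0455, edgeR adjusted p = 0.0117) and lost its call without the second MBZ replicate.

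UGT84A1 attaches glucose to hydroxycinnamic acids such as sinapate. UGT84A1 had 5.84, 5.90, 6.98 and 5.53 CPM in the MBZ libraries, against 0.593, 0.649, 0.485 and 0.289 CPM in the DMSO libraries, a ratio of 11.7 (interval 9.55 to 14.6). It heads a row of 3 related genes on chromosome 4 that did not move together: UGT84A4 rose by 0.22 (SE 0.0361) and UGT84A3 fell by 0.74 (SE 0.118) on the log2 scale. UGT84A2, the main sinapate glucosyltransferase, lies elsewhere and rose to 74.3 ± 1.37 CPM in MBZ, against 11.5 ± 0.379 CPM in DMSO (SD, n = 4 each). DIN11, a 2-oxoglutarate-dependent oxygenase first known as a dark-inducible gene, had 3.98 to 4.61 CPM in the MBZ libraries and 0.277 to 0.473 CPM in the DMSO libraries. AT5G24180, a class 3 lipase, had 3.92 to 4.50 CPM in the MBZ libraries and 0.119 to 0.304 CPM in the DMSO libraries. AT4G15680 encodes a thioredoxin superfamily protein of the glutaredoxin type. AT4G15680 had 3.85, 3.74, 3.96 and 3.39 CPM in the MBZ libraries, against 0.0988, 0.0406, 0.112 and 0.184 CPM in the DMSO libraries, a ratio of 35.9 (interval 23.1 to 59.2).

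**Figure D4:**
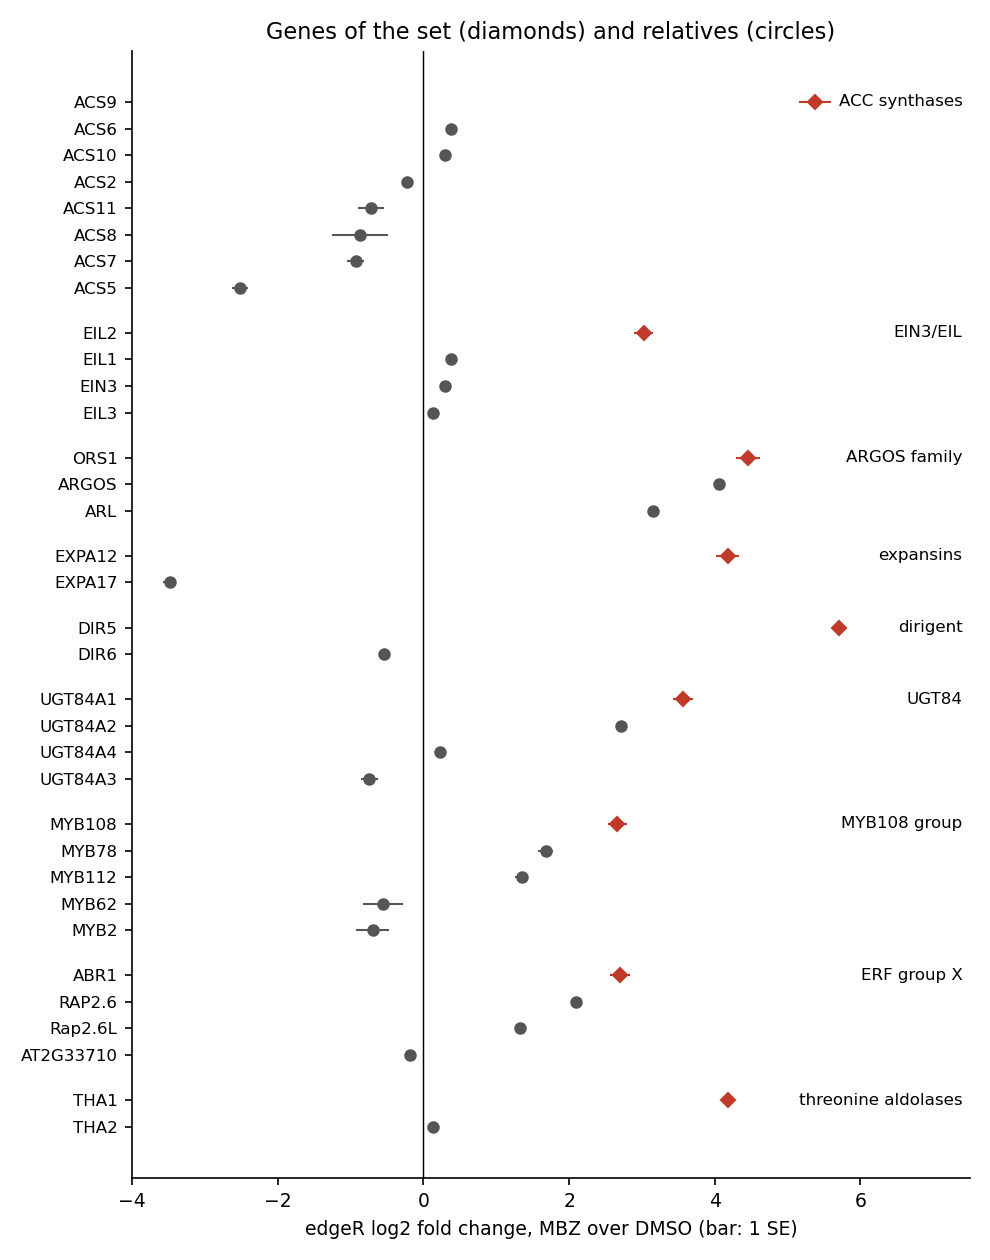
edgeR log2 fold change, MBZ over DMSO, for genes of the set (red diamonds) and their tested relatives (grey circles) in 9 families; bars are 1 SE. The ARGOS genes lie together on the right, while ACS5 and EXPA17 lie at -2.52 and -3.48, opposite to ACS9 and EXPA12.

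Genes without a clear role were AT5G22555, AT3G51410 and AT5G52710. AT5G22555 encodes an uncharacterized protein of 95 residues. AT5G22555 had 8.48, 8.27, 7.90 and 8.54 CPM in the MBZ libraries, against 0.672, 0.730, 0.653 and 0.789 CPM in the DMSO libraries, a ratio of 11.8 (interval 9.87 to 14.2). AT3G51410, of the DUF241 family, had 4.104 to 4.55 CPM in the MBZ libraries and 0.203 to 0.526 CPM in the DMSO libraries. AT5G52710, of the copper transport protein family, had 3.39, 3.67, 3.42 and 3.64 CPM in the MBZ libraries, against 0.237, 0.0811, 0.317 and 0.237 CPM in the DMSO libraries, a ratio of 16.05 (interval 11.7 to 22.5).

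Some of the 25 genes sat in rows of related genes, and most tested relatives in those rows were higher too. Within 3 genes on either side of the 25 genes lay 17 relatives outside the set, all on the same strand as their partner. Of these 11 were tested, 10 were higher and 1 was lower, beside 32.9% and 33.6% over all genes, and 8 were higher by at least 2-fold, with a median log2 fold change of 2.46. The low level of these genes limits this count, since the filter asked for 0.213 CPM in 4 libraries. Of the 11, 3 reached that level in no DMSO library and entered the test through the MBZ libraries, namely AT4G15670, AT4G15690 and AT4G15700. AT3G49630, AT4G15660 and AT5G24190 fell short of it in at least 1 DMSO library and needed MBZ libraries too. All of these were among the 10 higher. How reads were divided between similar genes of a row was not tested. Among 123 unrelated neighbours 91 were tested, 41 were higher, 20 were lower and 6 were higher by at least 2-fold, with a median log2 fold change of 0.05. The same figures over all 20867 tested genes were 6863 higher, 7014 lower, 812 higher by at least 2-fold and a median of 0.00027.

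In the glutaredoxin row all 4 relatives flanking AT4G15680 were called higher, each at a mean below 3 CPM in MBZ, beside 32.9% over all genes. The count of 4 is limited by the filter, since none of the 4 reached its level in all DMSO libraries. AT4G15660 reached it in the fourth DMSO library alone, at 0.237 CPM. The other 3, AT4G15670, AT4G15690 and AT4G15700, reached it in none and could hardly have been called lower. AT4G15690 averaged 1.93 ± 0.273 CPM in MBZ and 0.0748 ± 0.038 CPM in DMSO, AT4G15660 averaged 1.45 ± 0.118 CPM in MBZ and 0.176 ± 0.0544 CPM in DMSO, and AT4G15700 averaged 1.27 ± 0.26 CPM in MBZ and 0.0487 ± 0.0249 CPM in DMSO (SD, n = 4 each). AT4G15670, whose protein is 94.1% identical to that of AT4G15680, averaged 0.621 ± 0.258 CPM in MBZ and 0.0214 ± 0.0169 CPM in DMSO (SD, n = 4 each). The closest transcript, that of AT4G15660, is 83.0% identical to that of AT4G15680 over 536 bases, and how reads were divided among them was not tested. The unrelated gene that follows, AT4G15710, a cystatin-like gene, had 30, 17, 19 and 31 reads in the MBZ libraries, against 0, 4, 1 and 0 reads in the DMSO libraries.

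Smaller rows behaved alike in part. AT3G49630, the oxygenase gene 674 bases after DIN11 and 84.0% identical to it over 332 residues, had 76, 68, 66 and 85 reads in the MBZ libraries, against 14, 9, 24 and 10 reads in the DMSO libraries. Transcripts of DIN11 and AT3G49630 are 87.4% identical over 1057 bases, and how reads were divided between them was not tested. AT5G24190, next to the lipase AT5G24180, had 47, 40, 37 and 36 reads in MBZ, against 13, 13, 16 and 7 reads in DMSO, whereas AT5G24200, the next gene along, averaged 0.16 CPM in MBZ and 0.315 CPM in DMSO. AT5G52720, 529 bases after AT5G52710, averaged 2.6 ± 0.234 CPM in MBZ and 0.546 ± 0.0427 CPM in DMSO (SD, n = 4 each). The copper transport family genes on the other side, AT5G52700, AT5G52690 and AT5G52680, averaged 0.0104, 0.0756 and 0.0906 CPM in MBZ, and 0.0049, 0.126 and 0.234 CPM in DMSO, too low to be tested. Of the unrelated neighbours, those higher by at least 2-fold were AT1G21340, BHLH100, AT4G15710, SGR9, AT5G21105 and AT5G22560. BHLH100, an iron-deficiency transcription factor near ORS1, had a log2 fold change of 2.47 (SE 0.161), and SGR9, a RING ubiquitin ligase known from shoot gravitropism, near AT5G02760, one of 1.58 (SE 0.0796).

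**Figure D5:**
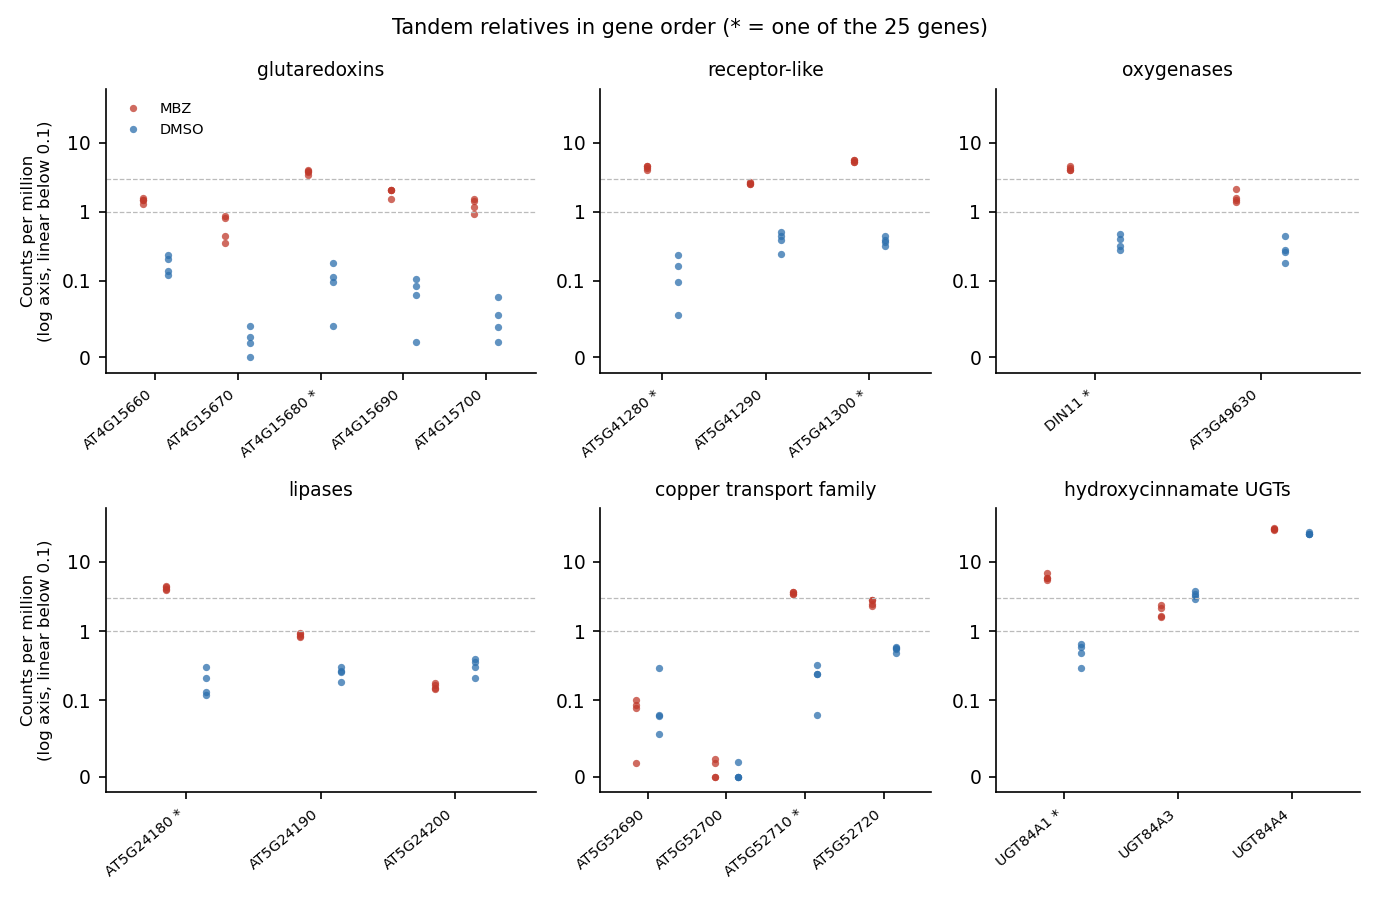
CPM of each library for genes in 6 rows of tandem relatives in chromosome order, MBZ points (red) left of DMSO points (blue), on a log axis that is linear below 0.1; stars mark genes of the set and dashed lines the limits of 1 and 3 CPM. The glutaredoxin and receptor-like rows are higher in MBZ throughout, and the copper transport and UGT rows are not.

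Opposite-strand overlaps touch 6 of the 25 genes, and whether reads were counted by strand is not given in the sources used here. THA1, UGT84A1, AT5G02760, FLS2 and ABR1 overlap well-expressed partners by 69 to 172 bases at an end. Those partners changed little. PKDM7D, AT4G15475, MOS11 and RWA1 had log2 fold changes of 0.12, -0.02, 0.21 and 0.10, and RPN5B had one of -0.30. RWA1, the partner of FLS2, had 3067 to 4297 reads in the MBZ libraries and 2892 to 4079 reads in the DMSO libraries. Whether reads from the overlaps were counted to the genes of the set was not tested.

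Gene structure and predicted proteins were compared with those of all genes, without a test. Of the 25 genes 9 (36%) had a single exon, beside 5457 (20.4%) of 26712 protein-coding genes. The median protein had 323 residues, beside 354 over all proteins, with 1.70% and 1.68% cysteine. A hydrophobic stretch at the N end, as in secreted proteins, was found in 6 (24%) of the 25 and 19.5% of all proteins. It was counted as at least 10 hydrophobic residues among 12 in a row within the first 35, a rough sign of secretion. By this measure EXPA12, an expansin, and AT5G41280 had no such stretch, while AT5G41300 did. By chromosome, 5 of the genes lie on chromosome 1, 1 on chromosome 2, 5 on chromosome 3, 4 on chromosome 4 and 10 on chromosome 5.

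Upstream sequence was searched on both strands for 7 short motifs, in the window of 250 bases before to 50 bases after each annotated start. The GCC box GCCGCC, bound by ERF factors, was present in 2 (8%) of the 25 windows, those of DIR5 and ABR1, and in 2.55% of 26711 windows of all genes. The core ATGTA, found in binding sites of EIN3, was present in 18 (72%) of the 25 and 56.5% of all. Shares for the W box TTGAC were 44% and 50.5%, for the G box CACGTG 4% and 7.79%, for the evening element AAATATCT 4% and 5.72%, for the auxin element TGTCTC 20% and 14.2% and for the TATA box TATAAA 60% and 52.6%. With 25 genes, 1 gene is 4 percentage points, and a match to so short a motif is a description and not a binding site.

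The 150 bases before the start are shown for the 2 genes with a GCC box, for FLS2, which had the most EIN3 cores there, and for EIL2, itself a relative of EIN3. All are the plus strand of TAIR10.1, at chr1:23813793-23813942 for DIR5, chr5:25891299-25891448 for ABR1, chr5:18791425-18791574 for FLS2 and chr5:7181776-7181925 for EIL2. Capitals mark the GCC box or the EIN3 core in either orientation, and cores may overlap.
DIR5: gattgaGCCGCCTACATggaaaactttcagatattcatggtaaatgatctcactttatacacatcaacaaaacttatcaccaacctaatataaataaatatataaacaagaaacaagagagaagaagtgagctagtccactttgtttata
ABR1: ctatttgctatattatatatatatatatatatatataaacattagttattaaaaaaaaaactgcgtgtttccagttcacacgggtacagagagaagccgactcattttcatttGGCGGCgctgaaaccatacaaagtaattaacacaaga
FLS2: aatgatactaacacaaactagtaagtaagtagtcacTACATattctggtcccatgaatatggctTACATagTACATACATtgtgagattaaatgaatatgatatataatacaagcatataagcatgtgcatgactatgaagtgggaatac
EIL2: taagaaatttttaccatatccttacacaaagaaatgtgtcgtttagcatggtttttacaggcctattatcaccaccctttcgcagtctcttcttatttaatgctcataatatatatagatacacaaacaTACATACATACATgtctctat
In DIR5 a GCC box starts at -144 relative to the start site and an EIN3 core follows it at once, at -138. In ABR1 the GCC box lies at -37, on the minus strand. FLS2 holds 4 cores and EIL2 holds 3 in these 150 bases, and those of EIL2 overlap in one run ending near the start. ACS9 had no match to either motif in its whole window.

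Gene lists for hormones, stresses and cell types place the set among better known genes. Of the 25, only ACS9 was in any of the 16 lists, which matched 271 of 293 names. Ethylene response genes, such as receptors, EBF genes and ERFs, were higher in 21 of 23 tested and lower in 2, beside 32.9% and 33.6% over all genes, with a median log2 fold change of 1.40 beside 0.00027. Its ERF genes did not move as one. ERF1, ERF2 and ERF11 had log2 fold changes of 3.28, 3.11 and 3.34, and ERF105, ERF4 and ERF104 had 1.11, 0.44 and 0.16. The 2 lower genes of the list were ERF5 and ERF6, at -0.12 and -0.51. Genes of the ethylene synthesis list were higher in 4 of 11 and lower in 7 (median -0.22). The 4 were ACS6, EFE, EOL1 and ACS9, and ACS9 was chosen by the rule as higher, so its call adds nothing. Core hypoxia genes were higher in 12 of 14 and lower in 2 (median 0.88). Auxin response genes were higher in 12 of 20 and lower in 6 (median 0.48), and jasmonate response genes higher in 10 of 21 and lower in 9 (median 0.15). Defence response genes were higher in 4 of 17 and lower in 11 (median -0.36). Wound and regeneration genes were higher in 3 of 6 and lower in 1 (median 0.31), gibberellin metabolism genes higher in 4 of 12 and lower in 5 (median -0.16), and abscisic acid response genes higher in 4 of 14 and lower in 8 (median -0.28).

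Cell type lists were read for the tissue sampled. Root hair genes were higher in 11 of 19 and lower in 5 (median 0.24, beside 32.9% and 33.6% over all genes), and lateral root genes higher in 5 of 13 and lower in 6 (median -0.11). Endodermis genes were lower in 9 of 11 (median -0.19) and xylem genes in 7 of 11 (median -0.26), with none higher in either. Green tissue genes were lower in 20 of 21 with none higher (median -0.88), and summed to 287 to 301 CPM in MBZ and 435 to 456 CPM in DMSO. Of the pollen genes 5 were tested, 1 higher and 1 lower (median 0.01), and their sum was 8.72 to 10.2 CPM in MBZ and 7.96 to 8.87 CPM in DMSO. Pollen regulator DUO1 and receptor kinase ANX2 were at 0 in all libraries, but others of the list were detected. GEX1, the higher gene, averaged 2.79 CPM in MBZ and 1.14 CPM in DMSO. ANX1, the lower gene, averaged 5.24 CPM in MBZ and 5.95 CPM in DMSO. Seed genes were almost absent, 6 of 15 at 0 throughout, among them the storage protein gene CRA1, 2 tested with 1 higher and 1 lower (median -0.73) and a sum of 0.494 to 0.604 CPM in MBZ and 0.526 to 0.784 CPM in DMSO. The part of cell composition in the 25 genes was not tested.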

How the data were processed

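RNA sequencing of Arabidopsis roots was deposited by the authors as 2 tables of the whole series, one of raw read counts per gene and one of RPKM values (reads scaled by gene length and library total). Per the submitters' processing notes, STAR 2.7.0a, edgeR 3.36.0 and the TAIR10 build were used; the counting program, annotation and strand setting are not given in the sources used here. The columns of both groups carry DMSO in their names, so groups were taken from the sample titles and descriptions. All table columns were used.

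CPM was count over column total. The 25 genes and all gene lists were chosen with earlier results of these data known. Differences were tested over all genes with edgeR 4.0.16 in R 4.3.3 (TMM factors, filterByExpr, quasi-likelihood test, Benjamini-Hochberg adjustment), tested on simulated data first. DESeq2 1.42.0 and limma 3.58.1 were alternatives. For genes of the set, the ratio pools reads over 4 libraries, and its exact 95% interval from the binomial distribution covers counting error only. Full values per library are given for the 10 genes of highest MBZ level, the 6 of largest ratio, those in a list or a shared family and those nearest the limits. Others have ranges.

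Locus IDs were matched to RefSeq (TAIR10.1), 32835 of 33602. Coordinates and upstream sequences are from that assembly. Relatives were found with blastp 2.17.0 at an expect value of 1e-05.
The 16 lists cover ethylene synthesis, ethylene response, hypoxia, jasmonate, defence, wound and regeneration, auxin, gibberellin, abscisic acid, root hair, lateral root, endodermis, xylem, green tissue, pollen and seed.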

Additional observations from a re-analysis of the deposited data

Results flagged for a closer look

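In each group of 4 libraries, the highest or lowest library was compared with its neighbours by Dixon's ratio of the gap to the whole range. This was done for each of the 25 genes and their sum, 52 groups in all. A ratio above the 95% critical value for 4 libraries marked 5 groups (9.62%), where chance marks about 5%. FLS2 had a low first MBZ library at 6.06 CPM, against 6.28 to 6.31 CPM in the others, a ratio of 0.886. The other 4 were DMSO values. The third DMSO library was high for AT1G17345 (0.709 CPM, against 0.487 to 0.499 CPM in the others, ratio 0.943) and for AT5G02760 (0.616 CPM, against 0.315 to 0.345 CPM, ratio 0.902). The fourth DMSO library was low for ORS1 (0.105 CPM, against 0.237 to 0.261 CPM, ratio 0.846) and for RL3 (0.342 CPM, against 0.426 to 0.435 CPM, ratio 0.906).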

How the results depend on the processing

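The number of genes meeting the rule was 25 with TMM effective library sizes and with DESeq2 size factors. It was 10 with an MBZ limit of 5 CPM and 54 with one of 2 CPM, and 12 with a DMSO limit of 0.5 CPM and 71 with one of 2 CPM. Limits on group means gave 34 genes, which include the 25 by construction. RPKM in place of CPM gave 27 genes, of which 16 were among the 25. Leaving out each library in turn gave 25 to 26 genes. The 25 had to remain each time, since leaving out a library only removes a condition of the rule. The log2 fold changes of the 25 genes kept their direction and side of the threshold in all 374 refits, which the rule itself favours. Their size depended on the pseudocount: with limma on log2(RPKM + 1), a scale that understates the change of low genes, 21 of the 25 were smaller by over 1.5 times, with a median of 2.28, beside 4.01 in edgeR. ACS9 had 1.78 there, beside 5.37 in edgeR, AT1G21320 had 2.32, beside 6.13, and FLS2 had 1.13, beside 2.89. With a filter at a mean of 1 RPKM on that scale it was 20 of 24 genes, and in every other refit none moved by that much. Among 23 tested relatives, 322 of 324 refits kept the call. THA2 was lost without the second MBZ replicate (0.10), and GSO1, a relative of FLS2, was called only without the first DMSO replicate (0.06). Over all genes, leaving out a library gave 6609 to 6752 higher and 6747 to 6844 lower calls.

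Replicate numbers did not pair the libraries, with correlations of deviations from group means of -0.0443 to 0.0063 for equal numbers and a mean of 0.0063 for unequal ones. With the replicate block, 6818 genes were higher and 6968 lower, beside 6863 and 7014 without it, and no call of the 25 genes or their relatives changed. Depth limits the DMSO values most: 3 reads equal 0.0547 to 0.0789 CPM, close to the mean DMSO level of ACS9 and AT1G21320.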
